A study of Mus musculus with 71 samples.

Results

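Expression of 10 genes of iron uptake, storage, export and sensing was measured in terminal whole blood of mice with HOCl-induced systemic sclerosis, a model of skin and lung fibrosis. They were taken by gene symbol: Tfrc, Slc25a37, Slc11a1, Slc11a2, Steap3, Fth1, Ftl1, Slc40a1, Ireb2 and Fbxl5. All 10 were among the 55416 genes of the count table, and 9 were among the 10508 genes of the normalised table, which does not list Steap3. Blood RNA came from 71 mice, with 11 control mice (label CTRL), 12 HOCl mice (HOCL) and 12 mice in each of the groups HOCL + D11, HOCL + E07, HOCL + D06 and HOCL + BPR21. The study's methods describe female Balb/c AnNRj mice, 6 weeks old when included, that received intradermal HOCl on 5 days a week over 6 weeks, while control mice received PBS. D11 and E07 are monoclonal antibodies (mAbs) against galectin-3, a lectin linked to fibrosis, and were injected subcutaneously into HOCl mice. Per the study's methods, mAb injections began before the first HOCl injection and were repeated every 5 days until the end. The groups are thus parallel, and rose or decreased below means a difference between groups, not a course over time. The labels give D06 and BPR21 as treatments of HOCl mice without saying what they are. Groups were housed in separate cages, so the group and its cage cannot be told apart.

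Most iron in the body moves through red cells and the macrophages that recycle them. Transferrin carries iron to the transferrin receptor (Tfrc), the endosomal reductase Steap3 and the transporter Slc11a2 release it into the cell, and mitoferrin 1 (Slc25a37) passes it into mitochondria, where heme and iron-sulfur clusters are made. Ferritin, a shell of heavy (Fth1) and light (Ftl1) chains, stores what is not used, and ferroportin (Slc40a1) is the exporter. Iron regulatory protein 2, the product of Ireb2, binds hairpins in several of these mRNAs when iron is low, and Fbxl5 directs its degradation when iron is high. Slc11a1 moves iron out of the phagosomes of macrophages and neutrophils.

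The hairpins, called iron-responsive elements, are shown because they are the sequence feature by which the protein of one of the 10 genes binds the mRNAs of others. The motif searched was CNNNNNCAGTGN on the sense strand of the UTRs of GENCODE vM39 transcripts, with all 5 bases after the first C able to pair with the 5 bases after the motif. Each match is printed 5′ to 3′ as 30 bases lying in 1 exon, with GRCm39 coordinates and strand, and capitals mark the 6 bases of the loop.
Fth1, 5′ UTR, chr19:9960096-9960125 (+): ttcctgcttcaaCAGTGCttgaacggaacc
Ftl1, 5′ UTR, chr7:45109202-45109231 (-): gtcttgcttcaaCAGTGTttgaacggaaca
Slc40a1, 5′ UTR, chr1:45964624-45964653 (-): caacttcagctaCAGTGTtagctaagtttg
Tfrc, 3′ UTR, chr16:32450037-32450066 (+): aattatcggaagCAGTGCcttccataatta
Tfrc, 3′ UTR, chr16:32450416-32450445 (+): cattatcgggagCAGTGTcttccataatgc
Tfrc, 3′ UTR, chr16:32450481-32450510 (+): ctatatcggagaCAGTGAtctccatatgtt
Tfrc, 3′ UTR, chr16:32450528-32450557 (+): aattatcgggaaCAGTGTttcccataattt
A match in the 5′ UTR was thus present in 3 of the 10 genes and in 0.21% of 20917 genes with a 5′ UTR. A match in the 3′ UTR was present in 1 of the 10 and in 0.753% of 21521 genes. The other 6 held no match with these letters. Such hairpins are known to block translation from a 5′ UTR and to protect the mRNA from a 3′ UTR, and the present data measure mRNA only.

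Gene counts summed to between 11932855 and 15948972 per mouse. The normalised table holds 70 mice, since HOCL mouse 8 has counts but no normalised values. Its values, referred to as vst values, are on a log2-like scale on which a difference of 1 is close to a doubling. They divide each library by a size factor, and size factors recomputed from the counts had a median of 1.26 in control mice, 0.92 in HOCl mice and 1.28 in E07 mice. The choice of scale therefore bears on every direction below. When CPM (counts scaled to the total of the library) were used in place of vst values, the median of all genes moved by -0.47 on the log2 scale in HOCl against control mice and by 0.49 in E07 against HOCl mice. Genes called in HOCl against control mice then split into 327 higher and 5134 lower, against 503 higher and 18 lower on the vst scale. For E07 against HOCl mice the split was 6561 higher and 324 lower, against 92 higher and 737 lower, and for E07 against D11 mice 4513 higher and 152 lower, against 31 higher and 449 lower. The libraries also fell into 2 sets that no label names, with mt-Co2 counts at 0.13% to 0.315% of mt-Co1 counts in 37 mice and at 0.696% to 8.57% in 34 mice. Both sets held mice of every group, with 8 and 4 HOCl mice, 5 and 6 control mice and 9 and 3 E07 mice, and results are given within each set where a gene was called.

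In accord with the label whole blood, markers of 8 blood cell types were present, and none of those in the count table was at 0 in all mice. Markers of red cell precursors and reticulocytes, the immature red cells that still hold RNA, took the largest share. The 19 of them with counts summed to a median of 6.56% of counts in the control group, with a range of 3.04% to 9.45%. The median was 10.6% in HOCl mice (range 7.34% to 17.1%) and 5.98% in E07 mice (range 4.17% to 8.52%). Of these 19 genes, 17 were called higher in HOCl than in control mice, as were 4.79% of all genes. In E07 against HOCl mice 18 were called lower, as were 7.01% of all genes. In whole blood, a change in the number of cells of a type and a change of RNA within each cell cannot be told apart.

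The 2 ferritin chains were by far the most abundant of the 10 mRNAs. Ftl1 had a median of 15800 CPM over the 71 mice, or 1.58% of all counts, and Fth1 9300 CPM, or 0.93%. Slc25a37 followed with 2020 CPM. Per kilobase of exon, the scale on which genes can be compared, the median level was 11800 for Ftl1, 2640 for Fth1 and 336 for Slc25a37, and it was between 0.289 for Steap3 and 10.3 for Slc11a1 for the other 7 genes. Relative spread was smallest for the ferritin chains, with a coefficient of variation of CPM over all mice of 17% for Fth1 and 20.7% for Ftl1, and largest for Tfrc (74.6%).

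On the vst scale, both ferritin chains were called higher in HOCl than in control mice and lower in E07 than in HOCl mice. On log2 CPM neither chain was called in either comparison, as given below. Neither was called changed in D11, D06 or BPR21 mice against HOCl mice. Fth1 (chr19:9957911-9962462, plus strand) had vst values of 16.07 to 17.32 with a median of 16.34 in the 11 control mice. The 11 HOCl mice with vst values spanned 16.55 to 17.86 with a median of 17.10, and the 12 E07 mice 16.09 to 16.90 with a median of 16.37. All 11 HOCl mice lay above the control median and 3 lay above every control mouse, so the groups overlapped at the edges, with control mouse 12 the highest of its group. The mean rose by 0.71 (SE 0.15, 95% interval 0.40 to 1.01), a fold change of 1.63 (limma, FDR = 0.00587). In E07 mice it decreased by 0.69 (SE 0.13, -0.95 to -0.43, FDR = 0.000491). Here 12 of 12 E07 mice lay below the HOCl median and 7 lay below every HOCl mouse.

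Ftl1 (chr7:45107367-45109308, minus strand) behaved alike, with somewhat wider spread. Control mice had vst values from 16.23 to 18.39 with a median of 17, HOCl mice from 17.17 to 19.07 with a median of 17.94, and E07 mice from 16.68 to 17.62 with a median of 17.17. All 11 HOCl mice again exceeded the control median, but 1 alone exceeded every control mouse, because control mouse 12 reached 18.39. The mean rose by 0.84 in HOCl mice (SE 0.22, 0.38 to 1.3, limma FDR = 0.0249), a fold change of 1.79. This call is the least firm of those made for HOCl mice: it was lost when control mouse 2, 7 or 8 was left out (highest FDR 0.0547), with edgeR on counts (FDR 0.0559) and with trend and robust variances in limma (FDR 0.0542), and was kept with DESeq2. edgeR and DESeq2 used all 12 HOCl mice with counts, and limma the 11 with vst values. Of 14 other settings, not counting mice left out, Ftl1 was called in 4. These include the FDR alone, which cannot lose a call. In E07 mice Ftl1 decreased by 0.82 (SE 0.16, -1.15 to -0.48, FDR = 0.00097), and 12 of 12 E07 mice lay below the HOCl median.

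As a share of all counts, which does not depend on size factors, Fth1 and Ftl1 together made up 2.18% ± 0.384 (SD) in the 11 control mice. In the 12 HOCl mice they made up 2.69% ± 0.223 and in the 12 E07 mice 2.22% ± 0.236. The share was 2.65% ± 0.497 in D11 mice, 2.71% ± 0.496 in D06 mice and 2.71% ± 0.447 in BPR21 mice (n = 12 each). On this scale the difference between HOCl and control mice was smaller than on the vst scale. Tested on log2 CPM, Fth1 differed by 0.22 (FDR = 0.106) and Ftl1 by 0.35 (FDR = 0.0506) in HOCl against control mice, and by -0.18 (FDR = 0.111) and -0.31 (FDR = 0.016, under the fold threshold of 1.3) in E07 against HOCl mice. Relative to the shift of the median of all genes on that scale, these differences were 0.69 and 0.82, then -0.67 and -0.80. Such a subtraction acts much like the size factors, so these values lie near those of the vst scale by construction. The ratio of Ftl1 to Fth1 per kilobase was 4.38 ± 1.06 in control mice, 4.82 ± 0.885 in HOCl mice and 4.29 ± 0.461 in E07 mice, so these group means of the chain ratio differed by less than the larger SD of each pair.

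A near-identical processed copy bears on the Ftl1 counts. Counts assigned to Ftl1-ps1 amounted to 0.221% to 0.398% of those of Ftl1 in the first library set and 0.782% to 11.1% in the second, where D06 mouse 8 was the highest and the next was at 1.42%. The counts of Fth1-ps reached at most 0.133% of those of Fth1.

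**Figure D1:**
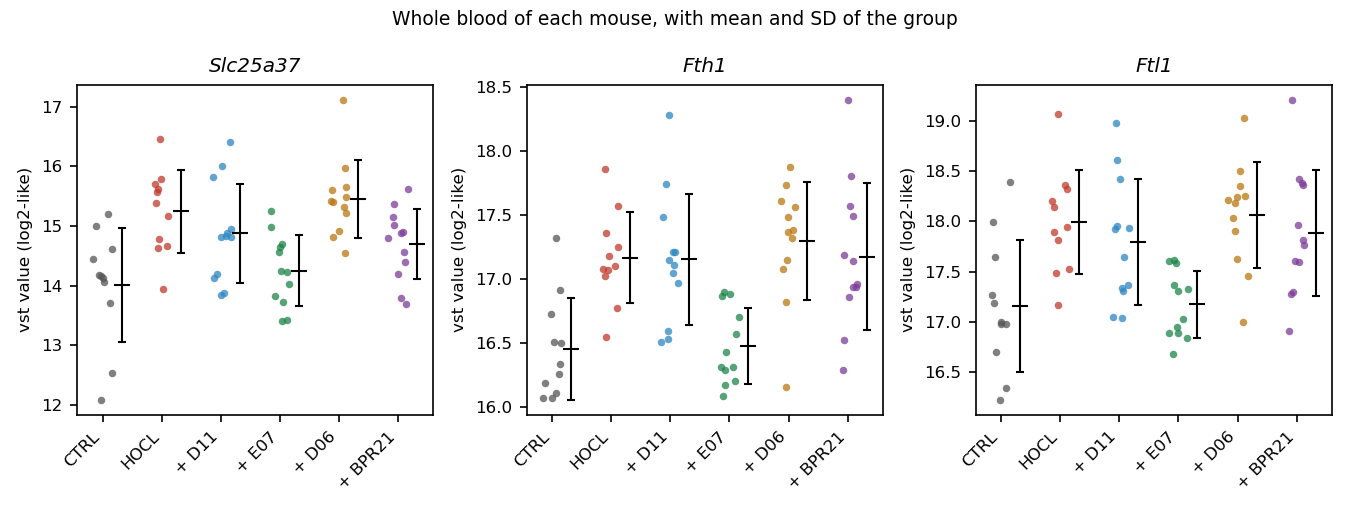
Levels of Slc25a37, Fth1 and Ftl1 (vst value, log2-like scale) in every mouse of the 6 groups; bars show mean and SD. HOCl mice lie above most control mice in all 3 panels, E07 mice lie near control mice, and the groups D11, D06 and BPR21 overlap the HOCl range.

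Among genes of uptake and delivery, Slc25a37 alone was called in any comparison on the vst scale. On log2 CPM Slc11a2 was called as well, as given below. Slc25a37 (chr14:69479297-69522561, minus strand), the importer of iron into mitochondria of developing red cells, had vst values of 12.09 to 15.20 (median 14.16) in control mice. HOCl mice ranged from 13.94 to 16.45 (median 15.38) and E07 mice from 13.40 to 15.25 (median 14.24). Of 11 HOCl mice, 6 lay above every control mouse, while control mice 7 and 2 were lowest of all at 12.09 and 12.53. The mean rose by 1.23 in HOCl mice (SE 0.31, 0.59 to 1.88, limma FDR = 0.0173), a fold change of 2.35. It decreased by 0.99 in E07 mice (SE 0.24, -1.49 to -0.50, FDR = 0.00546), with 12 of 12 E07 mice below the HOCl median. Unlike the ferritin chains, Slc25a37 was also called on log2 CPM in both comparisons, at 0.76 (FDR = 0.0135) and -0.49 (FDR = 0.0149). HOCL mouse 8, which has counts only, had 3970 CPM of Slc25a37, the highest of the 12 HOCl mice, and 9320 CPM of Fth1 and 20600 CPM of Ftl1.

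Tfrc (chr16:32427556-32451612, plus strand), which takes up transferrin-bound iron, varied more between mice of a group than between groups. Its vst values were 8.75 to 10.95 (median 9.45) in the control group, 8.99 to 12.05 (median 10.12) in the HOCl group and 9.18 to 12.22 (median 9.69) in E07 mice. A single mouse stood high in several groups, namely HOCL 7 at 12.05, E07 mouse 5 at 12.22, D06 mouse 6 at 12.74 and BPR21 mouse 12 at 12.89. The difference between HOCl and control mice was 0.54 (SE 0.29, FDR = 0.333) and that between E07 and HOCl mice -0.15 (SE 0.31, -0.80 to 0.49 with FDR = 0.793). Neither passed the test, and intervals of this width leave room for changes as large as those of the ferritin chains.

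Steap3 (chr1:120118487-120200435, minus strand), the reductase of the transferrin cycle, was the lowest of the 10 genes. It had between 0 and 93 counts per mouse with fewer than 10 counts in 8 of the 71 mice, and 0 of 13553818 counts in D11 mouse 10 allow a level of up to 0.221 CPM (3 counts; counting error only). Its mean level was 3.27 ± 1.59 CPM (SD) in the 11 control mice, 2.74 ± 1.3 in the 12 HOCl mice and 2.13 ± 1.11 in the 12 E07 mice. It was tested with edgeR on counts, because it has no vst values, and gave log2 fold changes of 0.22 (FDR = 0.865) in HOCl against control mice and -0.84 (FDR = 0.148) in E07 against HOCl mice. Neither passed the threshold, and at so few counts a moderate change of this gene would be hard to detect.

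Slc11a2 (chr15:100285776-100322953, minus strand), the transporter that carries iron out of endosomes, was low at a median of 9.41 CPM. Its vst values were 7.66 to 8.68 (median 7.86) in the control group, 7.40 to 8.18 (median 7.83) in the HOCl group and 7.68 to 8.12 (median 7.94) in E07 mice, ranges that overlapped almost whole. The differences were -0.14 (SE 0.11, FDR = 0.541) and 0.09 (SE 0.08, FDR = 0.499). Slc11a1 (chr1:74414303-74425448, plus strand), the phagosomal transporter, had medians of 9.48, 9.46 and 9.15 in the same groups, within ranges of 8.83 to 10.36, 8.80 to 10.56 and 8.72 to 9.83. It differed by 0.07 (SE 0.17, FDR = 0.880) and -0.26 (SE 0.15, FDR = 0.259).

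The exporter and the sensors showed no called change on the vst scale. Slc40a1 (chr1:45947211-45965683, minus strand) had vst values of 9.32 to 11.04 (median 9.93) in the control group, 9.44 to 10.99 (median 9.99) in the HOCl group and 9.65 to 10.37 (median 10.01) in E07 mice. Its interval for HOCl against control mice was -0.40 to 0.39, and for E07 against HOCl mice the difference was -0.06 (SE 0.15, FDR = 0.842). Fbxl5 (chr5:43900859-43978980, minus strand) had medians of 10.09, 10.15 and 10.12 and an interval of -0.28 to 0.29 for HOCl against control mice. In the BPR21 group, mice 11 and 7 stood apart from the other 10 for both genes, at 11.58 and 11.47 for Slc40a1 and at 11.57 and 11.42 for Fbxl5, whereas the next value was 10.15 for Slc40a1 and 10.26 for Fbxl5.

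Ireb2 (chr9:54770970-54820011, plus strand), which encodes iron regulatory protein 2, moved by a small amount. Its vst values were 8.75 to 9.75 (median 8.97) in the control group, 8.60 to 9.09 (median 8.97) in the HOCl group and 8.93 to 9.29 (median 9.13) in E07 mice. Of the 12 E07 mice, 7 lay above every HOCl mouse and 10 above the HOCl median. The difference of 0.21 (SE 0.07, 0.07 to 0.35, limma FDR = 0.0344) passed the FDR but its fold change of 1.16 was under 1.3, so it was not called. On log2 CPM, by contrast, Ireb2, Slc11a2 and Fbxl5 were called lower in HOCl mice, at -0.65 (FDR = 0.00727), -0.65 (FDR = 0.0139) and -0.47 (FDR = 0.0456), close to the shift of all genes of -0.47. In E07 against HOCl mice the same genes were called higher on that scale, at 0.76, 0.60 and 0.43, where the median of all genes was 0.49.

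**Figure D2:**
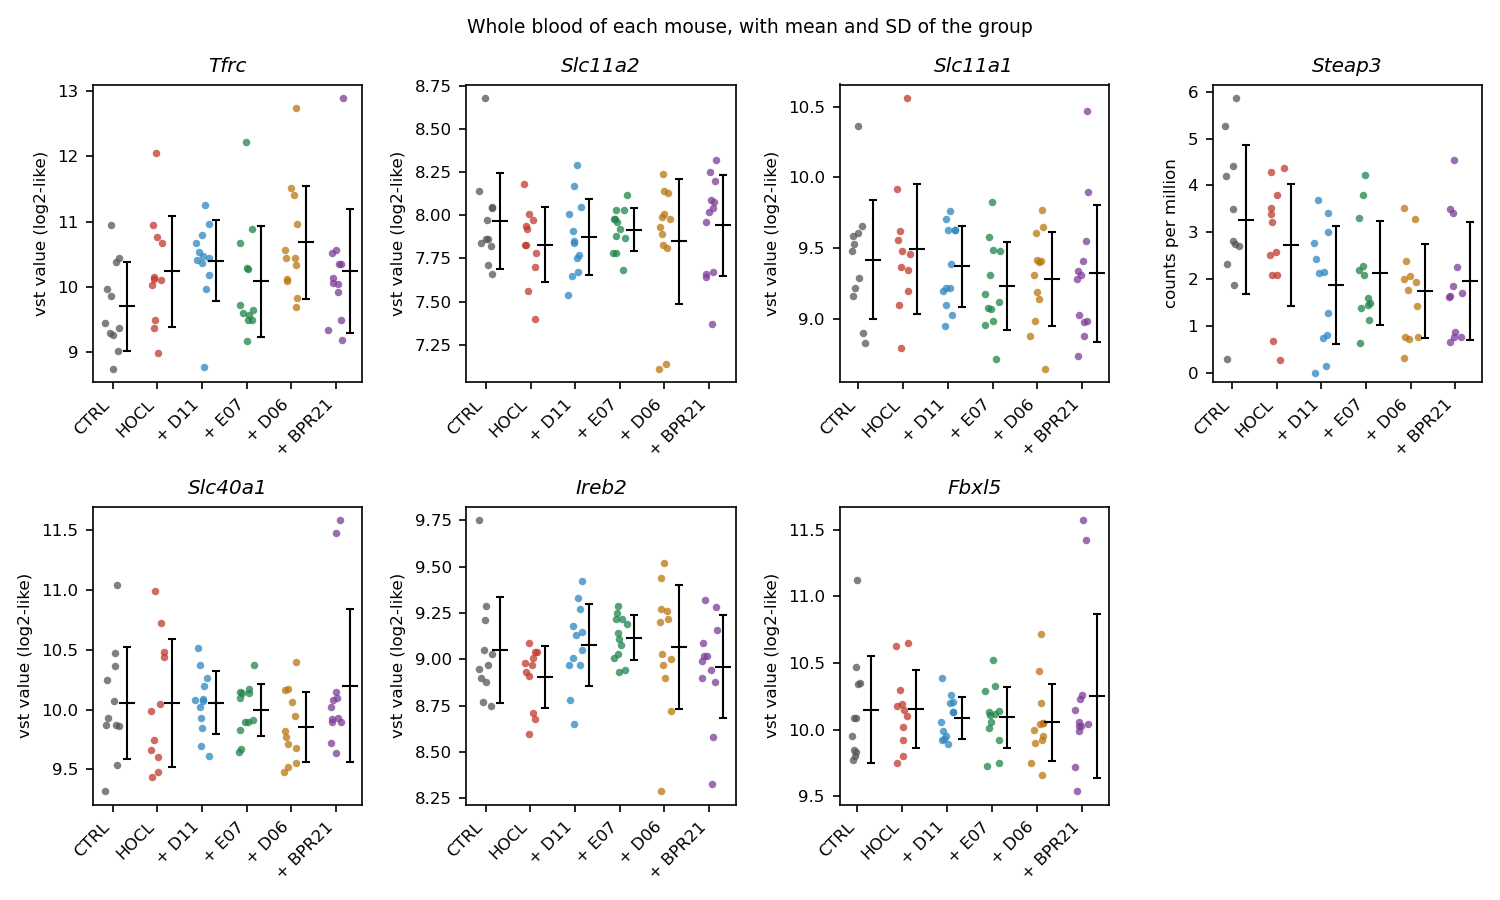
Levels of the other 7 genes in every mouse, as vst values (log2-like scale) or, for Steap3, CPM; bars show mean and SD. The groups overlap in each panel, and single mice stand high for Tfrc and, in the BPR21 group, for Slc40a1 and Fbxl5.

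Counting over the 9 genes with vst values, 3 rose and 0 fell in HOCl against control mice, where 4.79% of all 10508 genes were called higher and 4.96% were called in either direction. In E07 against HOCl mice 3 were lower and 0 higher, where 7.01% of all genes were called lower and 7.89% in either direction. The 3 genes were Slc25a37, Fth1 and Ftl1 both times. These comparisons share the HOCl mice, so a mouse that is high in the HOCl group adds to the difference in both. The median of the 9 differences was 0.07 in the first and -0.15 in the second comparison, where that over all genes was -0.02 and 0.02. For Steap3, which edgeR did not call, the background was 3.71% of 15211 genes in the first and 8.13% in the second comparison.

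D11, D06 and BPR21 mice were set against the same HOCl mice to ask whether these treatments moved the iron genes, and 0 of 9 genes were called in each. Few genes were called in all, at 0.0571% for D11, 0.133% for D06 and 0.638% for BPR21 with limma, and 0.184%, 0.0855% and 0.467% with edgeR, which did not call Steap3 either. In BPR21 mice Slc25a37 had vst values from 13.69 to 15.62 with a median of 14.84, and 11 of 12 mice lay below the HOCl median. Its difference of -0.55 (SE 0.24, limma p = 0.0336, FDR = 0.313) was the only one of these comparisons at an unadjusted p under 0.05 with limma, while edgeR also gave such a p for Ireb2 in D11 mice (p = 0.031) and Slc11a1 in D06 mice (p = 0.0435). In BPR21 mice 6 of 12 monocyte markers were called lower, with a median of -0.61 over the 12. Of 19 red cell markers 0 were called, with a median of -0.5 over the 19. With the red cell marker score described below as a covariate in limma, Slc25a37 differed by -0.22 (FDR = 0.453). The part of either cell type in the difference of Slc25a37 was not tested. Fth1 had medians of 17.13 in D11, 17.38 in D06 and 17.05 in BPR21 mice, within ranges of 16.51 to 18.28, 16.16 to 17.87 and 16.29 to 18.40. It differed from HOCl mice by -0.01 (-0.36 to 0.34), 0.13 (-0.20 to 0.46) and 0.01 (-0.37 to 0.39). Ftl1 differed by -0.20 (-0.64 to 0.25), 0.07 (-0.33 to 0.47) and -0.11 (-0.56 to 0.34). Slc25a37 differed by -0.37 (-0.95 to 0.22) in D11 and 0.21 (-0.30 to 0.72) in D06 mice. D06 mouse 8 was lowest of its group for all 3 genes and for Tfrc.

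**Figure D3:**
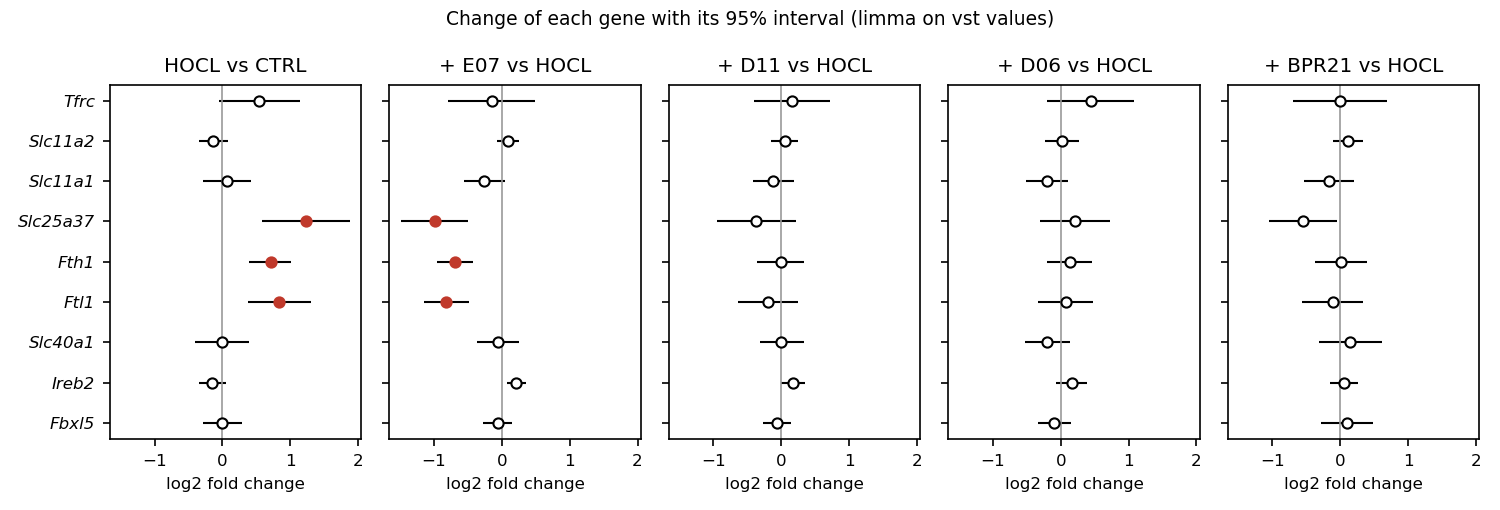
Log2 fold change of each gene with its 95% interval in 5 comparisons (limma on vst values); filled points passed FDR 0.05 and a fold change of 1.3. Filled points appear for Slc25a37, Fth1 and Ftl1 in HOCl against control mice and in E07 against HOCl mice, on opposite sides of 0.

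Since both mAbs bind galectin-3, E07 and D11 mice were also compared directly. Ferritin was lower with E07, whereas Slc25a37 did not pass the test: 2 of 9 genes were called lower and 0 higher, where 4.27% of all genes were called lower and 4.57% in either direction (5.02% with edgeR, which did not call Steap3). Fth1 decreased by 0.68 (SE 0.16, -1.0 to -0.36, limma FDR = 0.0224), with all 12 E07 mice below the D11 median and 7 below every D11 mouse. Ftl1 decreased by 0.62 (SE 0.18, -1.0 to -0.25, FDR = 0.0406). The Ftl1 call was lost without any one of E07 mice 2, 4, 7, 8, 9, 10 or 11 (highest FDR 0.0804). Both calls were lost on log2 CPM, on which Fth1 differed by -0.28 (FDR = 0.0374, under the fold threshold) and Ftl1 by -0.22 (FDR = 0.121) against a median over all genes of 0.39. On that scale the count turned to 0 lower and 3 higher, namely Slc11a2 (0.43, FDR = 0.0317), Ireb2 (0.44, FDR = 0.0404) and Fbxl5 (0.40, FDR = 0.0309). Slc25a37 differed by -0.63 (SE 0.26, FDR = 0.158). Against control mice, E07 mice had 0 of 9 genes called, where 0.00952% of all genes were called with limma and 0.00657% with edgeR, and 0 of 9 passed at an unadjusted p under 0.05 with either tool. The intervals there were -0.25 to 0.29 for Fth1, -0.37 to 0.41 for Ftl1 and -0.35 to 0.83 for Slc25a37.

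Ordered by the mean vst value, Fth1 was 16.46 ± 0.40 (SD) in control, 16.48 ± 0.29 in E07, 17.15 ± 0.51 in D11, 17.16 ± 0.36 in HOCl, 17.17 ± 0.57 in BPR21 and 17.30 ± 0.46 in D06 mice. The step of 0.68 from E07 to D11 was the only one of 45 steps between neighbouring groups, over the 9 genes, that exceeded the larger SD of the pair. All other neighbours in the order of any gene lay within 1 SD.

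Within library sets each called difference kept its direction, and the calls held in part. In the set of low mt-Co2, with 7 HOCl mice, 5 control mice and 9 E07 mice on the vst scale, Fth1 and Slc25a37 were called higher in HOCl mice, and all 3 genes were called lower in E07 mice. Ftl1 differed there by 0.63 between HOCl and control mice (FDR = 0.117). In the set of high mt-Co2, with 4 HOCl, 6 control and 3 E07 mice, 0 of 9 genes were called, as were 0 of all 10508 genes in either comparison. The low set called 266 of all genes in HOCl against control mice and 1116 in E07 against HOCl mice. The differences there were 1.52, 0.77 and 1.01 for Slc25a37, Fth1 and Ftl1 in HOCl against control mice, and -0.32, -0.43 and -0.49 in E07 against HOCl mice. For E07 against D11 mice neither set gave a call among all 10508 genes, with Fth1 at -0.72 in the low and -0.47 in the high set and Ftl1 at -0.73 and -0.29. Slc25a37, which was not called in that comparison, had mean vst values of 14.06 in E07 and 15.00 in D11 mice of the low set, and 14.84 and 14.76 in the high set, so its direction differed between the sets.

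Red cell markers moved with these 3 genes, both between groups and from mouse to mouse. After subtraction of group means, the score of the 19 red cell markers was correlated over 70 mice with Ftl1 (r = 0.885, rho = 0.846), Fth1 (r = 0.857, rho = 0.838), Slc25a37 (r = 0.845, rho = 0.797) and Tfrc (r = 0.578, rho = 0.542). Each had a two-sided permutation p of 1e-05, the smallest that 100000 resamples can give, or 3.6e-05 after Benjamini-Hochberg adjustment over 18 relations. Without the 2 mice farthest from the median score, r was 0.876, 0.862, 0.823 and 0.534. In the high mt-Co2 set alone it was 0.895, 0.891, 0.809 and 0.635, and in the low set 0.87, 0.809, 0.899 and 0.485. The other 5 genes had r between -0.202 and 0.119 with this score over all mice, none past the adjusted threshold, and the lowest of these, Ireb2, had r = -0.486 in the low set and -0.0301 in the high set. Scores and genes share the size factor of each mouse, which can add to r. With the score as a covariate in limma, 0 of 9 genes were called in any of the 7 comparisons. Of all 10508 genes this fit called 1 in HOCl against control mice, 0 in E07 against HOCl mice and 0 in E07 against D11 mice, against 521, 829 and 480 without the covariate. Fth1 then differed by 0.06 (FDR = 0.82) between HOCl and control mice, by -0.02 (FDR = 0.966) between E07 and HOCl mice and by -0.19 (FDR = 0.65) between E07 and D11 mice. In the first pair of comparisons Slc25a37 differed by -0.04 and 0.24, and Ftl1 by -0.15 and 0.02, while Ftl1 differed by -0.04 (FDR = 0.946) between E07 and D11 mice. Tfrc differed by 1.35 (FDR = 0.299) between E07 and HOCl mice in this fit. The score itself differed between the groups, so the fit also takes out group differences that run along with the score. It cannot tell a part of red cell precursors from other effects of the group. That part was not tested.

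**Figure D4:**
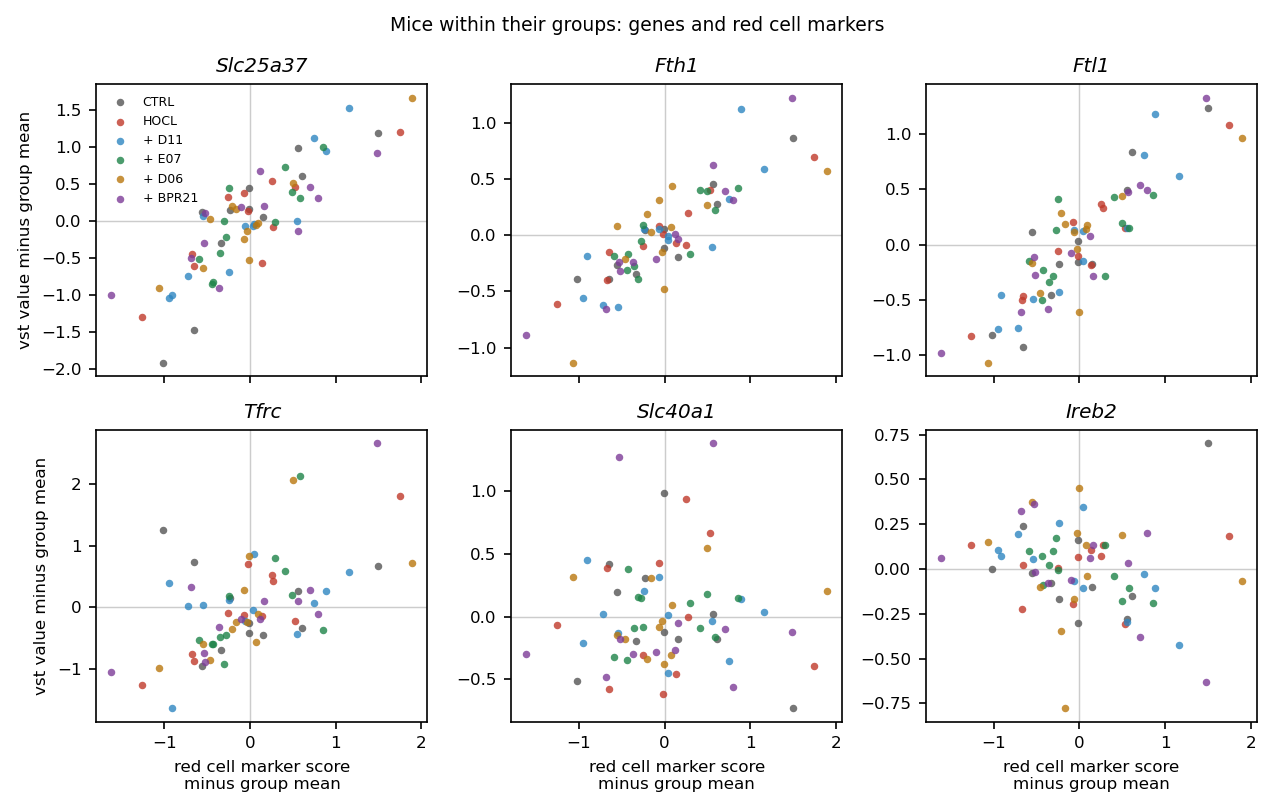
Vst value of 6 genes against the red cell marker score, each as the deviation of a mouse from its group mean, for 70 mice coloured by group. Points rise along a line for Slc25a37, Fth1 and Ftl1 (r of 0.845, 0.857 and 0.885), more loosely for Tfrc (0.578), and form no line for Slc40a1 and Ireb2.

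**Figure D5:**
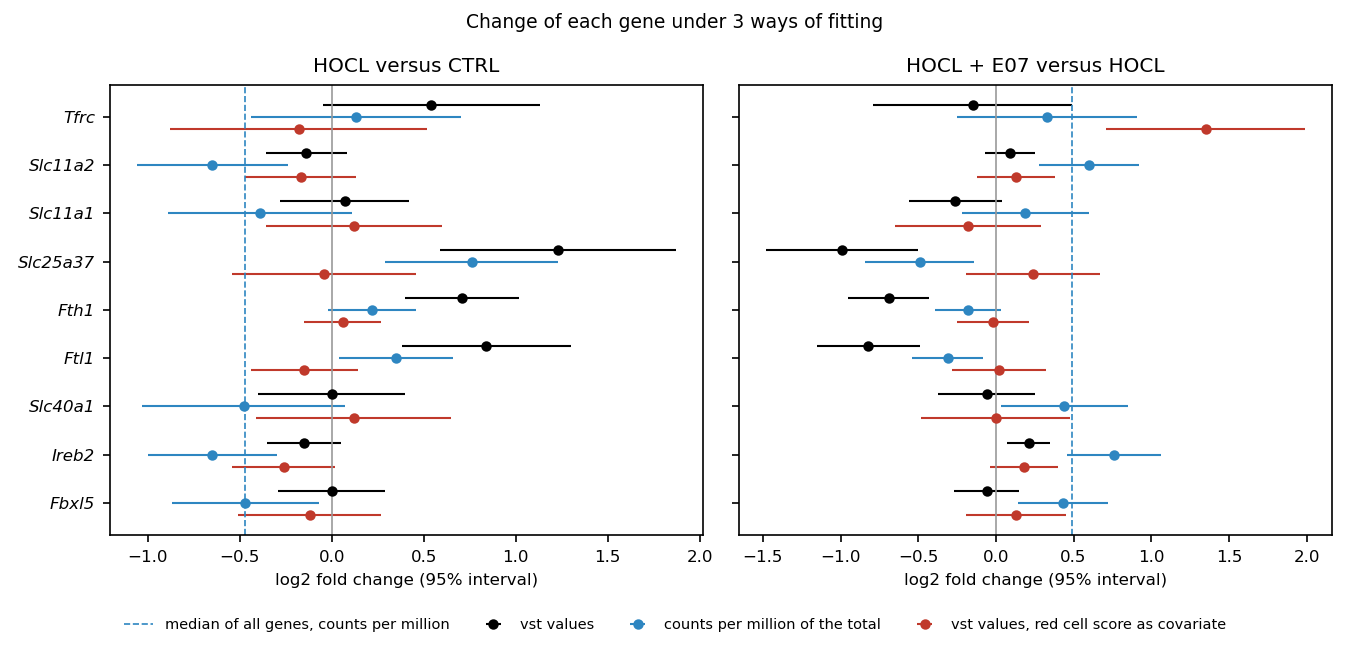
Log2 fold change of 9 genes with 95% interval from vst values, from CPM of the total, and from vst values with the red cell marker score as covariate; the dashed line is the median of all genes on the CPM scale. The ferritin chains move towards 0 on the CPM scale and lie near 0 with the covariate, and Tfrc with the covariate lies at 1.35 in E07 against HOCl mice.

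The transporter Slc11a1, the exporter Slc40a1 and Fbxl5 were correlated with the score of monocyte markers. Single neutrophil markers were among the genes most like them, as given further on. Those were picked for the highest r over all genes, so their r cannot be set against that of a score. No neutrophil score was computed. The score of 12 monocyte and macrophage markers was correlated with Slc11a1 (r = 0.632, rho = 0.611), Slc40a1 (r = 0.524, rho = 0.442) and Fbxl5 (r = 0.461, rho = 0.369). The permutation p of r was 1e-05, 3e-05 and 0.00037, or 3.6e-05, 9e-05 and 0.000951 after adjustment, and that of rho was 1e-05, 0.00033 and 0.00246, or 3.6e-05, 0.00099 and 0.00633. Without the 2 mice farthest in this score r was 0.631, 0.492 and 0.419. BPR21 mice 11 and 7, which stood apart for Slc40a1 and Fbxl5, were not among those left out. These markers summed to 0.0526% to 0.174% of counts in control mice, 0.0489% to 0.111% in HOCl mice and 0.0659% to 0.111% in E07 mice. In limma 0 of 12 were called in HOCl against control mice, where 4.96% of all genes were called. In E07 against HOCl mice 2 were called lower, where 7.01% of all genes were.

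Pairs of the 9 genes were also compared. Over the 36 pairs, 9 had an adjusted p of r under 0.05, and after subtraction of group means Fth1 and Ftl1 were the closest (r = 0.911, rho = 0.901, permutation p = 1e-05, adjusted 9e-05, 0.893 without the 2 farthest mice, 0.896 and 0.923 within the library sets). Slc25a37 was correlated with Ftl1 (r = 0.859, rho = 0.835) and Fth1 (r = 0.732, rho = 0.727), and Slc11a1 with Slc40a1 (r = 0.799, rho = 0.731), each at the same p of r. Fbxl5 was correlated with Slc40a1 at 0.688 (rho = 0.527, p of r = 3e-05, adjusted 0.000216) and with Slc11a1 at 0.503 (rho = 0.35, adjusted p of r 0.0013). Without the 2 farthest mice, r of these pairs fell to 0.528 and 0.36. Tfrc was correlated with Fth1 (0.496), Ftl1 (0.449) and Slc25a37 (0.362), with adjusted p of r of 0.0003, 0.000823 and 0.00808. Ireb2 ran against Slc25a37, with r = -0.306 (p = 0.0146, adjusted 0.0526) and rho = -0.411 (p = 0.00066, adjusted 0.00339), and likewise against Fth1 (r = -0.296, rho = -0.322) and Ftl1 (r = -0.28, rho = -0.359), where the adjusted p was under 0.05 for rho and over 0.05 for r.

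The genes outside the 10 whose pattern was most like theirs, by r of vst values after subtraction of group means over 70 mice, are given as a description. For Slc25a37 they were Tent5c (0.981) and Paqr9 (0.957), for Fth1 1810058I24Rik (0.974) and Taldo1 (0.945), and for Ftl1 Napa (0.975) and Oaz1 (0.968). For Tfrc they were Btnl10 (0.79) and Ermap (0.745), the second a red cell membrane protein. Slc40a1 was most like Csf3r (0.905), the receptor of granulocyte colony-stimulating factor and one of the neutrophil markers, and Gcnt2 (0.897). Fbxl5 was most like S100a9 (0.903), an abundant neutrophil protein and also among those markers, and Atg3 (0.896), and Slc11a1 like Tnfaip2 (0.849) and Csf3r (0.825). These r include the BPR21 mice that stood apart for Slc40a1 and Fbxl5. Ireb2 reached 0.715 with Arhgap15 and 0.692 with Yme1l1, and Slc11a2 no more than 0.527 with Fastk and 0.501 with Mrpl4.

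Other genes of iron handling were called in the same directions as the ferritin chains where they were called. Of all genes, 4.79% were called higher in HOCl against control mice and 7.01% lower in E07 against HOCl mice. Of 21 genes of iron-sulfur cluster assembly and aconitases, 4 rose and 0 fell in HOCl against control mice, and 5 were lower and 0 higher in E07 against HOCl mice, the fifth being Bola3 (-0.84). Glrx5, a mitochondrial glutaredoxin of cluster assembly, rose by 1.36 (SE 0.31, limma FDR = 0.00869) and decreased by 1.46 in E07 mice (SE 0.26, FDR = 0.000365). Iscu, the scaffold on which clusters are built, rose by 1.27 and decreased by 1.3, Isca1 rose by 1.05 and decreased by 1.12, and Hscb, a co-chaperone, rose by 1.03 and decreased by 1.05. The median over the 21 genes was 0.02 and 0.00.

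Of 4 genes of ferritin delivery and turnover, 1 was called, namely Ncoa4, the receptor that carries ferritin to lysosomes. The counts of this paragraph stand beside the same 4.79% and 7.01% of all genes. It rose by 1.05 in HOCl mice (SE 0.25, limma FDR = 0.0121) and decreased by 1.39 in E07 mice (SE 0.18, FDR = 8.27e-05). Of 8 transferrin cycle and mitochondrial import partners, Snx3, a sorting nexin that returns the transferrin receptor to the surface, rose by 0.66 and decreased by 0.82 in E07 mice, where transferrin itself (Trf) decreased by 0.58. Of 9 genes of heme handling, the heme transporter Slc48a1 rose by 1.02 and decreased by 1.04, and Lrp1, the receptor of hemopexin, decreased by 0.52 in E07 mice alone of these 2 comparisons. Of 3 genes of other metal import and siderophore binding, the neutrophil granule proteins Ltf and Lcn2 were both lower in E07 mice, at -0.72 and -0.92, and Ltf rose by 0.92 in HOCl mice. The single gene of systemic hormones and ferroxidases with vst values was not called.

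Beside these, the markers of other cells were called as follows. Of all genes, 4.79% were called higher in HOCl against control mice. In E07 against HOCl mice 7.01% were called lower, and 92 of 10508 genes higher. Slc4a1, the anion exchanger of red cells, rose by 1.80 in HOCl mice (limma FDR = 0.00356) and decreased by 2.03 in E07 mice (FDR = 0.000115). Of 8 platelet markers 5 were higher in HOCl than in control mice and 8 were lower in E07 than in HOCl mice, with Pf4 at 0.61 and -0.48. Of 10 neutrophil markers 2 were higher in the first and 1 was lower in the second of these comparisons, with S100a8 at 0.36 (FDR = 0.54) and -0.47 (FDR = 0.186). Of 8 B cell markers 0 were called in HOCl mice and 6 were higher in E07 mice, with Cd79a at 0.54 (FDR = 0.00257). Of 4 eosinophil markers 0 were called in HOCl against control mice and 2 were higher in E07 against HOCl mice. Of 8 T cell and 6 NK cell markers none was called in either comparison, and Cd3e differed by -0.15 (FDR = 0.46) and 0.06 (FDR = 0.719). Csf1r of monocytes differed by 0.18 (FDR = 0.642) and decreased by 0.50 in E07 mice (FDR = 0.0204).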

How the data were processed

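Terminal whole blood of 71 mice was collected into RNA-stabilising tubes, and stranded libraries were made after poly A selection and globin depletion. Per the study's methods and the submitters' processing notes, reads were trimmed with Cutadapt, aligned to mm39 (GRCm39) with STAR and counted with featureCounts, and the versions of these tools and the annotation are not given in the sources used here. The authors deposited raw read counts of 55416 genes, and log2-like values of 10508 genes in 70 mice from a variance stabilising transformation in DESeq2, without low genes and genes that code for no protein. Counts of reads that map to several copies may be lost or shared, which bears on Ftl1. Columns of no sample numbered 0. Groups and mouse numbers were taken from sample titles, since another label gives HOCL for all mice, controls included.

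The 10 genes, the gene lists and the tests were chosen with earlier results of these data known. Each comparison was fitted on the mice of its 2 groups with limma 3.58.1 (R 4.3.3) over all genes of the vst table, and a gene was called where the Benjamini-Hochberg FDR did not exceed 0.05 and the fold change reached 1.3. Steap3 was tested with edgeR 4.0.16 (glmQLFit, glmQLFTest, TMM) on genes with at least 10 counts in at least 11 mice. Fits with edgeR and DESeq2 used all mice with counts, HOCL mouse 8 included, whereas limma used the mice with vst values. The p-values measure the spread between the mice of 1 experiment. CPM were computed from the total count, with a pseudocount of 1 on the log2 scale, and lengths are the union of exons in GENCODE vM39. Correlations used deviations from group means and two-sided permutation within groups (100000 resamples). Python 3.11.15, numpy 2.4.6, pandas 2.3.3 and scipy 1.17.1 were used.

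All 10 genes were named, together with up to 4 genes of each other iron list with the largest fold change among those called in HOCl against control or E07 against HOCl mice, the 2 genes most like each of the 10, and 1 defining marker for each of 6 cell types. Alternatives were edgeR and DESeq2 1.42.0 on counts, other filters on low counts, CPM of the total, 1 fit over 6 groups, the red cell marker score as covariate, limma with trend and robust variances, the FDR alone, the mouse number as replicate block, and each HOCl mouse left out. The library sets (as covariate and each alone), the unblocked fit of shared numbers, and leaving out control or E07 mice were added after seeing the data. Scripts were tested on simulated data.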

Additional observations from a re-analysis of the deposited data

Results flagged for a closer look

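The effect of the 2 mAbs in HOCl mice differed for the ferritin chains by a direct test, E07 against D11 mice. The calls did not hold under every setting. Fth1 was lower with E07 by -0.68 on the log2 scale and Ftl1 by -0.62 (limma on vst values). All 12 E07 mice lay below the D11 median for both genes. Both calls were lost on log2 CPM, and that of Ftl1 also when any of 7 E07 mice was left out. In 1 fit over 6 groups the FDR was 0.0663 for Fth1 and 0.109 for Ftl1. Neither gene was called in either library set alone, and these fits called 0 of all 10508 genes. Of 14 other settings, Fth1 was called in 9 and Ftl1 in 7. These settings include the FDR alone, which cannot lose a call. They also include the fit over shared mouse numbers without the block, which repeats the main fit here, as all 12 numbers are shared. Of 19 red cell markers, 9 were called lower in E07 against D11 mice, where 4.27% of all genes were. With the red cell score as a covariate in limma the differences were -0.19 for Fth1 (FDR = 0.65) and -0.04 for Ftl1 (FDR = 0.946), and 0 of all 10508 genes were called in that fit.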

How the results depend on the processing

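Over 817 values of single genes recomputed under other settings, 769 kept their direction or stayed uncalled, 34 lost a call, 8 gained one and 6 changed sign with a call on 1 side, while 80 uncalled differences changed sign. The 6 were Slc25a37 (-0.04) and Ftl1 (-0.15) in HOCl against control mice and Slc25a37 (0.24) and Ftl1 (0.02) in E07 against HOCl mice with the red cell score as covariate, and Fbxl5 on log2 CPM (-0.47 and 0.43 in the same comparisons). Of the 9 genes, the number called in HOCl against control mice went from 3 to 0 with the covariate, 0 in the high mt-Co2 set alone, 0 with the replicate block and 1 over the shared mouse numbers without the block. In E07 against HOCl mice it went from 3 to 0 with the covariate and 0 in the high set. In E07 against D11 mice it went from 2 to 0 in 1 fit over 6 groups, 0 with the covariate, 0 in either library set, 1 with trend and robust variances and 1 with the library set as covariate. Calls over all 10508 genes fell along with these: in E07 against D11 mice from 480 to 0 in each setting with 0 of the 9 genes, and in HOCl against control mice from 521 to 1 with the covariate, 0 in the high set, 85 with the replicate block and 300 over shared numbers without it. The cause was not tested, and fits within a set or over shared numbers hold fewer mice. On log2 CPM 4, 4 and 3 genes were called in these comparisons, of which Slc25a37 in the first pair of comparisons was also called on the vst scale.

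With each control, HOCl or E07 mouse left out in turn, 2 to 3 genes were called in HOCl against control mice, 3 in E07 against HOCl mice, 1 to 2 in E07 against D11 mice (Ftl1 was the gene lost in each case) and 0 in D11, D06 or BPR21 against HOCl mice. The mice left out were HOCl mice in each comparison with the HOCl group, and control or E07 mice where calls had been made. No mouse was left out of E07 against control mice. The FDR alone added Ireb2 in E07 against HOCl mice. Same-numbered mice are different animals, so the numbers were not taken as pairs. Their deviations were correlated over 0.1 in 4 of 10 pairs of HOCl and control mice (mean r 0.0476). For E07 and control mice this held in 7 of 11 pairs (mean r 0.146), and in each other comparison for 2 to 4 pairs. With the replicate block, the FDR in HOCl against control mice was 0.0937 for Slc25a37, 0.0533 for Fth1 and 0.121 for Ftl1, and the block changed no other call. Depth limits Steap3 and, at a median of 9.41 CPM, Slc11a2.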

Other observations

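The 2 library sets defined by the ratio of mt-Co2 to mt-Co1 counts were also separated by the ratio of Ftl1-ps1 to Ftl1 counts, with no mouse between 0.398% and 0.782%. D06 mouse 8 stood apart in both ratios, at 8.57% and 11.1%, where the next mice of its set reached 1.35% and 1.42%. In control mice the mean vst value of Slc25a37 was 14.46 ± 0.37 (SD, n = 5) in the low set and 13.64 ± 1.15 (n = 6) in the high set, and in E07 mice 14.06 ± 0.53 (n = 9) and 14.84 ± 0.37 (n = 3). No label names a batch, and no explanation of the sets was tested.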
